A study of Mus musculus with 6 samples.

Results

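The 41 genes described here are lysosomal hydrolases, their activator proteins, proteins of the lysosomal membrane, and the transcription factors Tfeb and Tfe3. They were found on the arrays as the gene probes whose transcript identifier maps to a listed symbol. All 41 had a probe, 53 probes in all, and 40 could be tested among 19670 genes. RNA was measured on 6 one-colour arrays. Soma is the somatic fraction of the male gonad in E13.5 embryos (3 samples), from MCH x C57BL6/J animals with the transgene Oct5<delta>PE-GFP Tg. ESC is VR15, a male embryonic stem cell line with the transgene Vasa::RFP Tg (3 samples), so ESC stands for 1 line. The design text calls the samples of each cell type biological replicates. How the somatic cells were separated is not given in the sources used here.

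Lysosomes are acidic organelles in which proteases, glycosidases, sulfatases and lipid-degrading enzymes break down material delivered by endocytosis and autophagy. Most of the soluble enzymes carry mannose 6-phosphate, which receptors in the Golgi and endosomes recognise, and a proton pump in the membrane keeps the lumen acidic. Many of the genes hold a short DNA element, the CLEAR element, which Tfeb and its relatives bind, and loss of a single enzyme causes a storage disease in humans and mice.

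Signals are given on a scale on which 100 is the array's own 75th percentile, and a difference is soma minus ESC on the log2 scale with the standard error of a limma fit (n = 3 arrays per group). A gene was called at an adjusted p under 0.05 over all 19670 genes. That 75th percentile was 1245 to 1388 intensity units on the soma arrays and 959 to 1016 on the ESC arrays, 56.0% to 63.2% of probes were well above background, and no spot was saturated. Soma 3 lay on the slide of the 3 ESC arrays, but each scan held arrays of 1 group, and effects of scan and group cannot be told apart. The labels fit the markers: 7 of 7 pluripotency genes were lower in soma, and all tested markers of Sertoli cells (6 of 6), fetal Leydig cells (4 of 4) and stroma (6 of 6) were higher. Soma is a mixture, in which fewer cells of a type and less RNA per cell cannot be told apart. Among all genes 84.9% were called, 38.3% higher in soma and 46.6% lower, and the median difference was -0.14, so a call by itself was common here.

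The lysosomal genes did not move as a block. In soma 24 of the 40 were higher, 14 were lower, and Arsb and Mcoln1 did not pass the test. At 2-fold or more, 13 were higher and 4 were lower, where 23.2% and 24.2% of all genes were. The median difference was 0.51, which lies 0.65 above the median of all genes. Signals of soma and ESC arrays did not overlap for 38 of the 40, where 87.2% of all genes had no overlap. On the slide that both groups shared, all 40 differences had the same sign as over 6 arrays. That slide held soma 3 alone beside the 3 ESC arrays. These arrays are also among the 6, so the signs are not independent, and the share over all genes is not given. By role, all 9 tested cysteine proteases and all 5 lipid enzymes and activators were higher in soma, with the call for the cysteine protease Ctsz lost in several settings. Of 11 glycosidases 6 were lower, a share not far from the 46.6% of all genes, and 3 of these (Gla, Glb1 and Fuca1) lost the call under another scaling. Both transcription factors were lower, Tfe3 under all 17 alternative settings and Tfeb with its call in 11 of them.

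**Figure D1:**
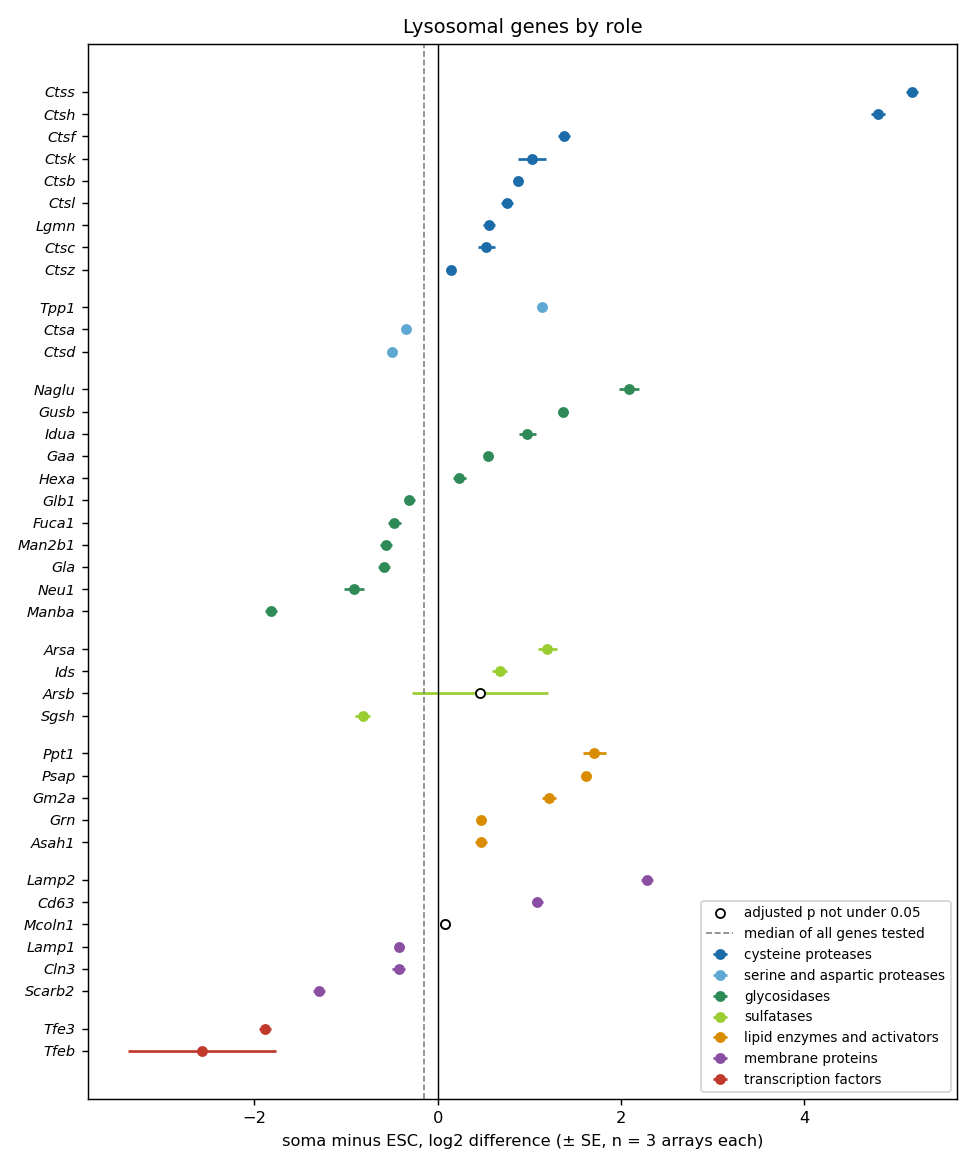
Difference between soma and ESC for the 40 tested lysosomal genes, in log2 units on the horizontal axis, grouped by role on the vertical axis. Points are fitted differences, bars the standard error (n = 3 arrays each), open points the 2 genes that did not pass, and the dashed line the median of all genes (-0.14). The cysteine proteases and the lipid enzymes and activators all lie to the right of 0, and both transcription factors lie to the left.

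Both transcription factors of the list were lower in soma. Tfe3, a basic helix-loop-helix factor that activates lysosomal genes, had signals of 479, 477 and 492 in soma, against 1914, 1677 and 1747 in ESC. Every soma array lay far below every ESC array, a difference of -1.88 ± 0.06 (adjusted p = 1.5e-06), or 3.68-fold lower in soma. A further Tfe3 probe gave -2.16 ± 0.10. Tfeb, the best known regulator of lysosomal biogenesis, had signals of 4.30, 4.36 and 4.97 in soma, against 56.3, 49.01 and 7.10 in ESC. Soma arrays were all low, and ESC 3 lay close to them while ESC 1 and ESC 2 were high. The difference was -2.57 ± 0.81 (adjusted p = 0.0247). It was -3.53 without ESC 3 (adjusted p = 1.08e-05), and the call was lost when any other single array was left out, with adjusted p between 0.0581 and 0.0756. On the shared slide alone the Tfeb difference was -2.44 and did not pass (adjusted p = 0.135).

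Of 9 relatives and controllers of Tfeb, 8 were tested, 2 were higher and 6 were lower. Among all genes 38.3% were higher and 46.6% lower. Mitf, the relative known for melanocyte and osteoclast development, had signals of 39.3, 42.96 and 38.7 in soma, against 345, 269 and 317 in ESC. All soma arrays were below all ESC arrays, at 7.67-fold lower (-2.94 ± 0.11, adjusted p = 1.81e-06). Tfec, the remaining relative, had no kept probe and was not tested. Among the Rag GTPases, which bring mTORC1 and Tfeb to the lysosome, Rragd was below the background criterion on all soma arrays. As reported, soma was at least 2.46-fold lower for Rragd (adjusted p = 2.18e-05). The smallest Rragd difference under the alternatives was -0.92 on the log2 scale, short of that bound. Rragc was slightly higher (0.32 ± 0.05). Fnip2, a partner of folliculin in the control of Rag GTPases, fell by 1.61 on the log2 scale. Zkscan3, described in human cells as a repressor of autophagy and lysosomal genes, was higher in soma (1.67 ± 0.06, adjusted p = 1.34e-06).

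Promoter sequence was set beside these values because Tfeb, Tfe3 and Mitf bind a palindrome, TCACGTGA, that is the core of the CLEAR element. RefSeq promoter windows of 250 bases before and 50 bases after the start (GRCm38.p6) were given for 38 of the 41 genes, in 45 windows, and Asah1, Ctsb and Ctsh were not among them. TCACGTGA, which reads the same on both strands and contains CACGTG, was in 5 of the 45 windows (11.1%), against 0.974% of 32851 windows of all genes. The 5 genes were Ctsa, Ctsd, Gla, Cln3 and Mcoln1. Their stretches are shown in gene orientation, with the palindrome in capitals.
Ctsa (GRCm38.p6, chr2:164833740-164833802, plus strand): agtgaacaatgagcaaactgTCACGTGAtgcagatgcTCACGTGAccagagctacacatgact
Ctsd (GRCm38.p6, chr7:142387899-142387946, minus strand): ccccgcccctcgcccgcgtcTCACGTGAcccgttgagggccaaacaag
Gla (GRCm38.p6, chrX:134601173-134601253, minus strand): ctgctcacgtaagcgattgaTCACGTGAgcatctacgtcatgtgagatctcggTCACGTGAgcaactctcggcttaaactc
Cln3 (GRCm38.p6, chr7:126583331-126583378, minus strand): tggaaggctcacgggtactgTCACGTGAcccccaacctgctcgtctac
Mcoln1 (GRCm38.p6, chr8:3500453-3500500, plus strand): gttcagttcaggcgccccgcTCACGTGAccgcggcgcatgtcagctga
Ctsa and Gla each held 2 copies, and the others 1. Of these genes, Ctsa, Ctsd, Gla and Cln3 were lower in soma and Mcoln1 did not pass, but under other settings Ctsa, Gla and Cln3 reversed and Ctsd fell short of the threshold, as given with the proteases, glycosidases and membrane proteins. Among all 228 tested genes with TCACGTGA, 36.0% were higher and 48.2% lower in soma, close to the 38.3% and 46.6% of all genes. The shorter CACGTG was in 14 of the 45 windows (31.1%), against 7.15% of all windows, and of its 14 genes 6 were higher and 7 lower.

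A sequence that differs from the palindrome in the middle, TCACATGA (TCATGTGA on the other strand), was searched after the values were seen. It was in 5 of the 45 windows (11.1%), against 0.986% of all windows. Its genes were Ctss, Tpp1, Ppt1 and Grn, which were higher in soma, and Gla, which was lower. Among the 106 tested genes with it, 31.1% were higher and 51.9% lower. The stretches of Ctss, Tpp1 and Ppt1 are shown because these genes were over 2-fold higher in soma and hold the sequence just past the start site.
Ctss (GRCm38.p6, chr3:95526784-95526815, plus strand): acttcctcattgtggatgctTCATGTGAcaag
Tpp1 (GRCm38.p6, chr7:105752206-105752251, minus strand): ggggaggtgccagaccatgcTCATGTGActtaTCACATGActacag
Ppt1 (GRCm38.p6, chr4:122836220-122836256, plus strand): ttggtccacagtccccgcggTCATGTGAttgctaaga
A match describes letters in the window and not binding of a factor.

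Cysteine proteases, mostly of the papain family, carry out much of the protein breakdown in lysosomes, and soma was higher for 9 of 9 tested genes, with a median difference of 0.88. Ctss, an endopeptidase of antigen-presenting cells, had signals of 120.3, 132 and 129.8 in soma, against 3.37, 3.48 and 3.74 in ESC. All soma arrays were far above the ESC arrays, of which 2 of 3 were well above background, at 5.17 ± 0.07 (adjusted p = 1.54e-07) or 36.1-fold. With normexp background correction, which lifts dim signals, the Ctss difference was 3.58. Ctsh, an aminopeptidase of the same family, had signals of 541, 496 and 462 in soma, against 17.1, 18.6 and 18.04 in ESC. Here too no array of soma came near ESC, at 4.80 ± 0.07 (adjusted p = 1.97e-07) or 27.9-fold. Ctsk, the collagen-degrading protease of osteoclasts, lies next to Ctss on chromosome 3 with 0 coding genes between them. Its signals were 73.2, 60.1 and 52.7 in soma, against 34.99, 27.3 and 28.5 in ESC. The arrays did not overlap, and at 1.03 ± 0.15 (adjusted p = 0.000969) its difference was much smaller than that of its neighbour.

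The other tested cysteine proteases differed by 1.38 or less. Ctsf had signals of 60.7, 56.9 and 59.6 in soma, against 24.1, 22.9 and 21.2 in ESC, which is 2.60-fold higher in soma (1.38 ± 0.07, adjusted p = 5.26e-06). Ctsb, which acts as endopeptidase and dipeptidase, had signals of 1175, 1158 and 1184 in soma, against 644, 625 and 646 in ESC, a difference of 0.88 ± 0.04. Ctsl, a strong endopeptidase, had signals of 2057, 2072 and 1938 in soma, against 1121, 1252 and 1225 in ESC, a difference of 0.76 ± 0.06. In all 3 genes every soma array was above every ESC array. Lgmn, the asparaginyl endopeptidase that processes cathepsins, differed by 0.56 ± 0.07, and Ctsc, which activates granule serine proteases, by 0.53 ± 0.10. Ctsz, a carboxypeptidase, had signals of 436, 431 and 427 in soma, against 379, 391 and 402 in ESC. The arrays lay close together without overlap, and the difference of 0.14 ± 0.05 (adjusted p = 0.0296) turned to -0.053 when arrays were scaled to their median. Ctsz kept its call in 9 of 17 alternatives, and lost it for example with the slide as a block (adjusted p = 0.14). Ctso had no probe well above background on all 3 arrays of a group and was not tested.

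Macrophages are rich in several of these proteases, and macrophage markers were higher in soma too. Of 15 macrophage markers 14 were tested and all 14 were higher, with summed signals of 965 to 1032 in soma, against 106.6 to 135 in ESC, and 6 of them were not well above background on any ESC array. Erythroid markers were also high in soma, with summed signals of 81406 to 86205 in soma, against 16.9 to 20.03 in ESC, all 6 tested higher. Endothelial markers summed to 473 to 663 in soma, against 499 to 539 in ESC, with 3 of 6 higher and 2 lower. Germ cell markers summed to 303 to 665 in soma, against 439 to 534 in ESC, with 2 of 5 tested higher and 1 lower. These sums include genes also bright in ESC, such as Kdr and Dppa3. Cdh5, Emcn, Tie1 and Nanos2 were not well above background on any ESC array. In soma they were at least 36.9-fold, 11.2-fold, 4.76-fold and 16.2-fold higher as reported. With normexp background correction their log2 differences were 3.97, 2.41, 1.48 and 3.02, which are smaller than these bounds. From the same lists, Pecam1 (-0.94 ± 0.08), Tek (-0.48 ± 0.15) and Mael (-1.42 ± 0.36) were the ones called lower in soma. The germ cell sum rose from 303 on soma 1 to 470 on soma 2 and 665 on soma 3, the soma array on the ESC slide. The part of these cell types in the results was not tested. Laptm5, a lysosomal membrane protein of blood cells, went the other way, with signals of 8.95, 9.55 and 9.93 in soma, against 57.3, 43.8 and 49.3 in ESC (-2.40 ± 0.11, adjusted p = 4.45e-06).

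Cystatins and Ctla2 proteins form families that include inhibitors of these proteases. Of 9 listed 7 were tested, of which 6 were higher in soma and 1 was lower, where 38.3% and 46.6% of all genes were. Of the 6, Cst8, Cst9 and Cst12 passed the filter on dim probes through soma alone, so these 3 could hardly have come out lower. Cst9 (testatin), a member of the cystatin family known from the fetal mouse testis, had signals of 2653, 2468 and 1990.4 in soma, against 0.935, 0.676 and 0.837 in ESC. No ESC array had it well above background. As reported, soma was at least 827-fold higher, the brighter mean over the lowest signal called above background (adjusted p = 1.6e-07). Cst8, a family member of the male reproductive tract, had signals of 1004, 938 and 805 in soma, against 0.682, 0.495 and 0.605 in ESC, at least 320.5-fold higher in soma (adjusted p = 1.6e-07). Cst12, a related gene, was at least 11.02-fold higher. These bounds hold for the processing as reported. Under the alternatives the smallest log2 differences were 8.31 for Cst9 and 7.27 for Cst8, short of their bounds. Cst3 (cystatin C), the widely secreted inhibitor, was higher by 0.85 ± 0.06, and Ctla2a and Ctla2b, a pair with near-identical sequence that resembles a cathepsin propeptide, by 2.36 and 2.39. Cstb, the inhibitor of the cytoplasm, was the exception, at -0.97 ± 0.06 (adjusted p = 1.15e-05).

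Of the 3 serine and aspartic proteases, Tpp1 was higher in soma, and Ctsd and Ctsa were lower as reported but not under every setting. Tpp1, a tripeptidyl peptidase lost in a childhood form of neuronal ceroid lipofuscinosis, had signals of 107.2, 100.0 and 106 in soma, against 46.9, 48.7 and 46.6 in ESC. Soma arrays were all above ESC arrays, at 2.21-fold (1.14 ± 0.05, adjusted p = 4.6e-06). Ctsd, the main aspartic protease of lysosomes, had signals of 866, 807 and 828 in soma, against 1151, 1141 and 1243 in ESC. It was lower on every soma array (-0.50 ± 0.06, adjusted p = 0.000322), but the difference was -0.078 and did not pass after quantile normalization (adjusted p = 0.251). Ctsa, a carboxypeptidase that also protects Glb1 and Neu1 in a complex, had signals of 1292, 1356 and 1290.5 in soma, against 1647, 1646 and 1706 in ESC. The used probe was lower in soma (-0.34 ± 0.05, adjusted p = 0.000746), while a dimmer probe had signals of 19.4, 21.5 and 19.4 in soma, against 3.74, 4.27 and 3.88 in ESC and a difference of 2.34 ± 0.08. The direction for Ctsa therefore depends on the probe, and it was 0.15 after quantile normalization and 0.999 with the mean of both probes.

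The glycosidases and sulfatases went both ways: 5 of 11 glycosidases were higher in soma and 6 lower, and of 4 sulfatases 2 were higher, 1 was lower and Arsb did not pass. Set out by substrate, a grouping made with the values known and not tested, most enzymes that take apart heparan sulfate were higher in soma. Naglu, which removes N-acetylglucosamine from heparan sulfate, had signals of 114, 113 and 108 in soma, against 22.5, 30.1 and 26.7 in ESC. No soma array came near the ESC arrays, at 4.25-fold (2.09 ± 0.11, adjusted p = 8.51e-06). Gusb, the beta-glucuronidase, had signals of 289.6, 297 and 294 in soma, against 109, 121 and 112 in ESC, which is 2.58-fold higher in soma (1.37 ± 0.06, adjusted p = 3.06e-06). Idua, the iduronidase lost in Hurler syndrome, differed by 0.98 ± 0.09, and Ids, the iduronate sulfatase lost in Hunter syndrome, by 0.68 ± 0.08. The same held for Arsg (1.76) and Hgsnat (1.35), enzymes of this substrate outside the 41 genes. Sgsh, the sulfamidase of this route, was the exception by its brightest probe, with signals of 2441, 2511 and 2194 in soma, against 4218, 3895 and 4468 in ESC (-0.82 ± 0.08, adjusted p = 0.000138). Its dimmer probe went the other way, with signals of 129, 124 and 109.9 in soma, against 22.4, 31.5 and 33.2 in ESC, a difference of 2.08 ± 0.17. The mean of both probes was 0.63, and quantile normalization left -0.17 (adjusted p = 0.15).

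Enzymes that remove single sugars from glycoprotein chains were mostly lower in soma. Manba, the beta-mannosidase, had signals of 144, 145 and 139.8 in soma, against 536, 471 and 512 in ESC. All soma arrays were well below ESC, at 3.53-fold lower (-1.82 ± 0.06, adjusted p = 1.62e-06), and Manba had the lowest difference of the 11 glycosidases. Neu1, the sialidase, had signals of 133, 137 and 111 in soma, against 217, 252 and 245 in ESC, a difference of -0.91 ± 0.11 (adjusted p = 0.000303). Man2b1, the alpha-mannosidase, differed by -0.57 ± 0.07, Fuca1, the fucosidase, by -0.47 ± 0.07, and Glb1, the beta-galactosidase, by -0.31 ± 0.06. Fuca1 and Glb1 kept their sign but lost the call when arrays were scaled to the spike-in probes (adjusted p = 0.0622 and 0.38). Aga, which cuts the link between sugar and asparagine and is not among the 41 genes, was slightly higher (0.32 ± 0.05). Gla, the alpha-galactosidase lost in Fabry disease, was lower at -0.58 ± 0.07 and at 0.020 after quantile normalization. Gaa, which degrades glycogen, was higher at 0.55 ± 0.05 (adjusted p = 9.61e-05).

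Hexa and Gm2a act together on the ganglioside GM2, and both were higher in soma. Hexa, the alpha subunit of beta-hexosaminidase, differed by 0.24 ± 0.07 (adjusted p = 0.0199), and by 0.041 with scaling to the array median, which did not pass (adjusted p = 0.66), and it kept its call in 12 of 17 alternatives. Gm2a, the activator that presents the lipid to the enzyme, had signals of 36.8, 31.1 and 32.04 in soma, against 14.4, 14.01 and 14.7 in ESC, which is 2.31-fold higher in soma (1.21 ± 0.08, adjusted p = 1.78e-05).

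**Figure D2:**
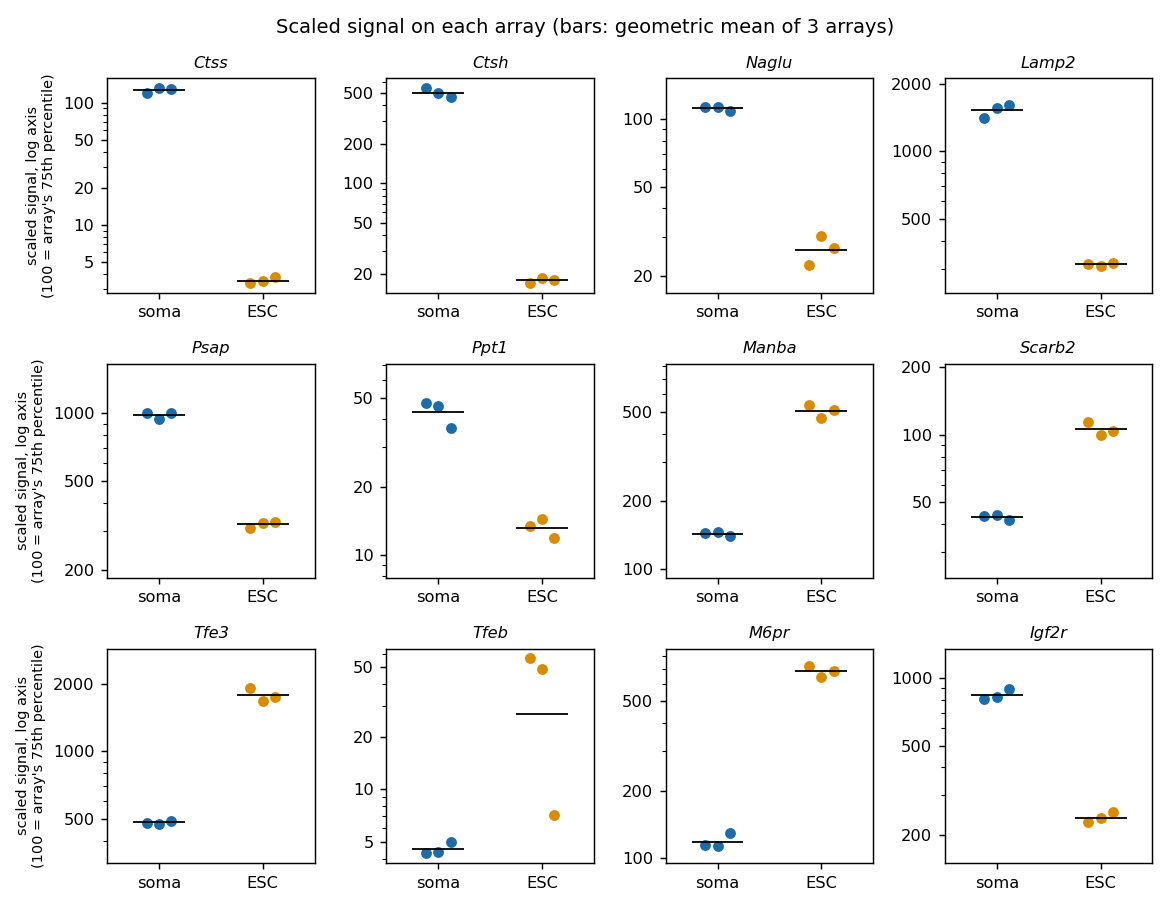
Scaled signal of 12 genes on each array, on log axes where 100 is the array's 75th percentile. Points are single arrays (3 soma in blue on the left, 3 ESC in orange on the right) and bars geometric means. In every panel the groups are apart, and in the Tfeb panel ESC 3, at 7.10, lies near the soma arrays.

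The other lipid enzymes and activators were all higher in soma as well, 5 of 5 with Gm2a and a median difference of 1.21. Psap, the precursor of the saposins that help degrade sphingolipids, had signals of 1002, 949 and 1002 in soma, against 309, 325 and 327 in ESC. Soma and ESC were far apart on every array, at 3.07-fold (1.62 ± 0.05, adjusted p = 1.27e-06). Ppt1, which removes palmitate from proteins, had signals of 47.1, 46.1 and 36.6 in soma, against 13.4, 14.3 and 11.9 in ESC, a difference of 1.71 ± 0.12 (adjusted p = 3.37e-05). Asah1, the acid ceramidase, differed by 0.47 ± 0.07, and Grn, progranulin, which is cut into granulins in the lysosome and is listed with this role, by 0.48 ± 0.05. Arsa, the sulfatase for the lipid sulfatide, was likewise 2.29-fold higher (1.19 ± 0.10, adjusted p = 7.22e-05). Among lipid enzymes outside the 41 genes, Lipa, the acid lipase for cholesteryl esters and triglycerides, was 4.41-fold higher in soma (2.14 ± 0.05, adjusted p = 4.72e-07). Arsb, which acts on dermatan and chondroitin sulfate, could not be placed: its dim signals were 5.05, 6.79 and 8.40 in soma, against 8.29, 9.13 and 1.45 in ESC. ESC 3 lay far below the other ESC arrays, the groups overlapped, and the difference was 0.46 ± 0.74 (adjusted p = 0.577), or -0.40 without ESC 3 (adjusted p = 0.162).

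Among the 6 membrane proteins, 2 were higher in soma, 3 were lower and Mcoln1 did not pass. The closely related proteins Lamp1 and Lamp2, which cover much of the inner face of the lysosomal membrane, differed in opposite directions as reported. Lamp2 had signals of 1406, 1552 and 1611 in soma, against 313, 307 and 319 in ESC. Each soma array was far above each ESC array, at 4.86-fold (2.28 ± 0.07, adjusted p = 8.78e-07), and a further probe gave 1.87 ± 0.08. Lamp1 had signals of 3429, 3363 and 3387 in soma, against 4601, 4416 and 4565 in ESC. It was lower on all soma arrays (-0.42 ± 0.05, adjusted p = 0.000215), but its difference was 0.27 after quantile normalization. Scarb2 (LIMP-2), a membrane protein that also serves as a receptor for the transport of a hydrolase, had signals of 43.4, 43.8 and 41.9 in soma, against 114, 99.4 and 104 in ESC. It was 2.46-fold lower in soma (-1.30 ± 0.07, adjusted p = 7.54e-06).

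Cd63, a tetraspanin of late endosomes and lysosomes, had signals of 5179, 4993 and 5468 in soma, against 2383, 2418 and 2572 in ESC. Soma lay above ESC on every array (1.08 ± 0.06, adjusted p = 9.54e-06), and by 1.74 after quantile normalization. Cln3, the membrane protein lost in juvenile Batten disease, was lower by its brightest probe (-0.43 ± 0.07). Its other probes gave -0.077 ± 0.09 and 1.25 ± 0.11, the last from a dim probe that was well above background on 1 of 3 ESC arrays, and the mean of all probes gave 0.25. Mcoln1, a calcium channel of the lysosomal membrane, had signals of 465, 466 and 444 in soma, against 413, 447 and 444 in ESC. These overlapped, with a difference of 0.077 ± 0.06 (adjusted p = 0.235). The result depends on the scaling: Mcoln1 was called higher after quantile normalization (0.33, adjusted p = 0.00322) and with the spike-in probes (0.30, adjusted p = 0.0301), and was -0.12 with the array median.

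**Figure D3:**
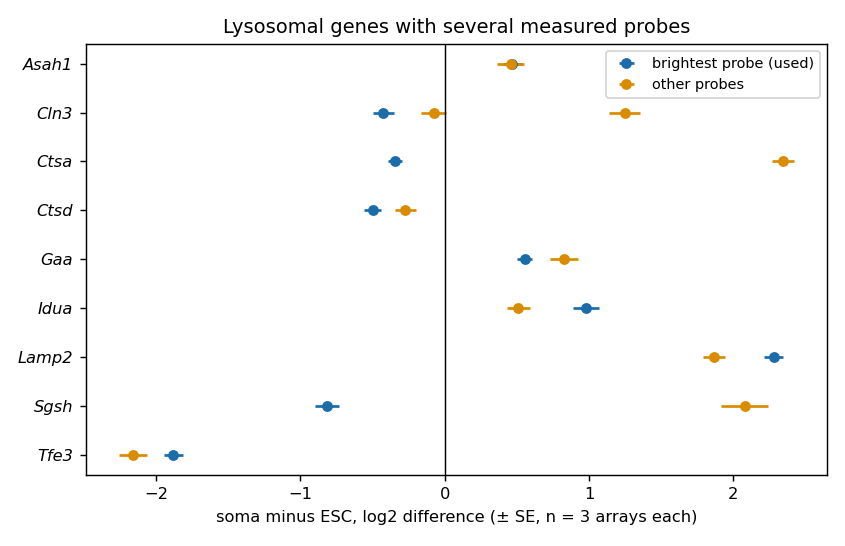
Difference between soma and ESC for each kept probe of the 9 lysosomal genes with several kept probes, in log2 units with the standard error (n = 3 arrays each). The brightest probe, used for the gene, is blue and the others are orange. The probes of Cln3, Ctsa and Sgsh lie on both sides of 0, and those of the other 6 genes lie on 1 side.

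The wider lysosomal machinery was listed in 6 further sets of 102 genes, of which 94 were tested. In soma 44 were higher (46.8%), 42 were lower (44.7%) and 8 did not pass, where 38.3% of all genes were higher and 46.6% lower. Other luminal hydrolases, 25 tested, were higher in 15 cases and lower in 7. Scpep1, a serine carboxypeptidase, was 2.29-fold lower in soma (-1.20 ± 0.06). Of 21 tested other membrane proteins and transporters, 12 were higher and 7 lower. Tpcn1, a cation channel of endosomes and lysosomes, had signals of 1111, 1086 and 1119 in soma, against 146, 153 and 152 in ESC. It was 7.36-fold higher in soma (2.88 ± 0.05, adjusted p = 2e-07). Lmbrd1, which takes part in the export of vitamin B12 from lysosomes, differed by 2.29 ± 0.06, and Tmem192, a membrane protein used as a lysosome tag, by -1.77 ± 0.06.

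The subunits of the proton pump were mostly lower in soma, 13 of 19 tested (68.4%), with 5 higher and a median of -0.67. Among all genes 46.6% were lower, and the median was -0.14. Quantile normalization brought the differences of bright subunits nearer to no change, with Atp6v0c from -0.58 to -0.14 and Atp6v1f from -0.83 to -0.28. Dimmer Atp6v1b2 went from -1.18 to -1.30. Atp6v1c1, subunit C of the part that hydrolyses ATP, had signals of 64.7, 64.97 and 65.5 in soma, against 171, 165 and 162 in ESC. It was 2.55-fold lower (-1.35 ± 0.05, adjusted p = 1.47e-06), and Atp6v1b2, the broadly expressed subunit B, was lower by a like amount (-1.18 ± 0.07). The 3 tested isoforms of subunit a, which anchor the pump in a given membrane, were all higher: Tcirg1 by 1.03 ± 0.10, Atp6v0a1 by 0.88 ± 0.07 and Atp6v0a2 by 0.49 ± 0.07. Atp6ap1, an accessory subunit (0.53), and Atp6v1g1 (0.20) were the remaining subunits that were higher.

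Both receptors for mannose 6-phosphate were called, in opposite directions. Igf2r, the large receptor that also binds IGF2, had signals of 805, 823 and 893 in soma, against 228, 237 and 253 in ESC. All soma arrays were above all ESC arrays, at 3.51-fold (1.81 ± 0.07, adjusted p = 2.09e-06). M6pr, the small cation-dependent receptor, had signals of 114, 113 and 129 in soma, against 723, 645 and 683 in ESC. Here all soma arrays were below ESC, at 5.75-fold lower (-2.52 ± 0.08, adjusted p = 1.06e-06). Of the 14 genes for sorting of hydrolases, 4 were higher and 8 were lower in soma (28.6% and 57.1%), against 38.3% and 46.6% of all genes. Gnptab, the catalytic part of the phosphotransferase that makes the tag, differed by -0.72 ± 0.05. Gnptg, another part of that phosphotransferase, went the other way by both of its probes (0.48 ± 0.07 and 1.66 ± 0.05). Vps35, a retromer subunit that returns the receptors to the Golgi, differed by -0.95 ± 0.07. Sort1, an alternative sorting receptor, was higher by its brightest probe (0.74 ± 0.09) and lower by another (-0.77 ± 0.06).

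**Figure D4:**
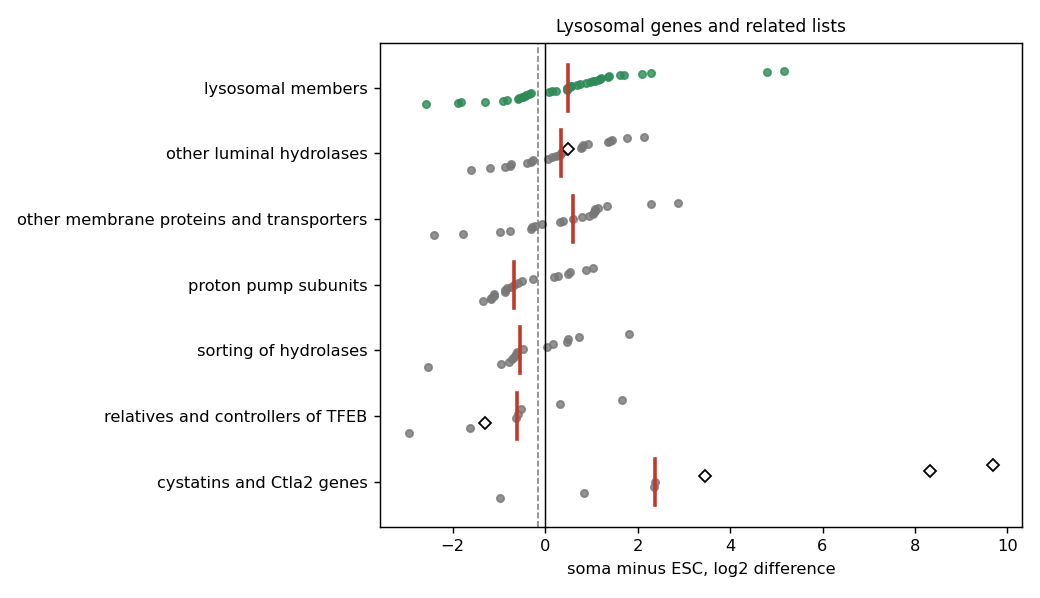
Difference between soma and ESC in log2 units for each tested gene of the lysosomal list (green) and of 6 related lists (grey), with the median of each list in red and the median of all genes dashed (-0.14). Open diamonds are bounds, under the processing as reported, for genes not well above background in 1 group, which include Cst8, Cst9 and Cst12. The medians of the proton pump (-0.67) and sorting (-0.55) lists lie below 0, and that of the 40 lysosomal genes (0.51) lies above it.

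The calls that held under every setting were uneven between directions. The matching shares over all genes were not computed, so this unevenness cannot be read as particular to the lysosomal genes. Of the 24 genes higher in soma, 21 kept direction and call under all 17 alternatives. Ctss kept them in the 16 in which it was tested, since it was left out where a probe had to be well above background on all 6 arrays, and Ctsz and Hexa lost the call in some. Of the 14 lower genes, 5 did: Neu1, Man2b1, Manba, Scarb2 and Tfe3.

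**Figure D5:**
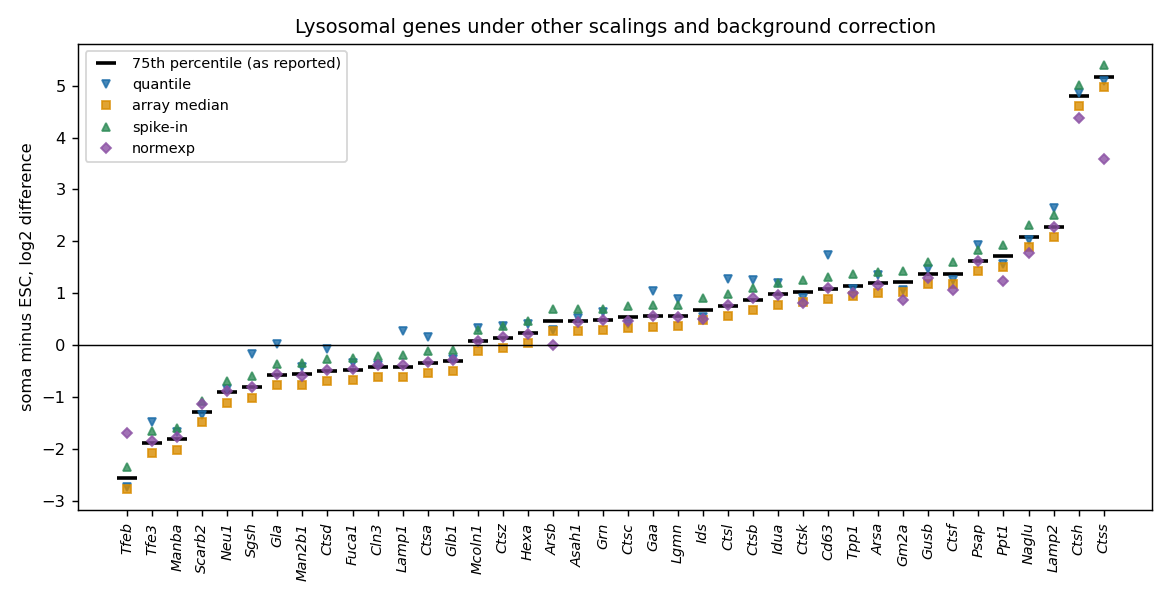
Difference between soma and ESC in log2 units for the 40 tested lysosomal genes, ordered from lowest to highest, as reported (black bars) and under 3 other scalings and normexp background correction (symbols). Symbols of Gla, Ctsa, Lamp1, Mcoln1, Ctsz and Arsb fall on both sides of 0.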

How the data were processed

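Per the file headers, the deposited scanner files were made with Feature Extraction 10.7.3.1 and give an intensity per spot that the authors' software background-subtracted and detrended. The authors also deposited a matrix of log2 values, 99.97% of which lay within 0.01 of the scanner values after scaling and centring of each probe over the 6 arrays, and it served as an alternative. Spots of a probe were averaged as log2 processed signal, without 1377 control spots and 15 values with an outlier mark, and the array's 75th percentile was subtracted. A probe was kept when well above background on all 3 arrays of at least 1 group (24150 of 39429), and the kept probe with the highest mean log2 signal stood for its gene. Transcript identifiers were matched to RefSeq symbols of GRCm38.p6, for 66.1% of probes. The array's grid was built on an earlier assembly, so coordinates are given for RefSeq promoters only.

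Soma minus ESC was fitted with limma 3.58.1 in R 4.3.3 (two-sided, Benjamini-Hochberg over 19670 genes), and the fit was tested on simulated data. The members and lists were chosen with earlier results of these data known, and no list was tested. Named were all 41 members, from each related list the 2 largest calls in each direction, and Mitf and Tfec. Some genes under this rule are not reported here. Aga, Atp6ap1, Atp6v0a2, Atp6v1g1, Cst12, Cst3, Ctla2a, Ctla2b, Fnip2, Gnptab and Hgsnat were named after their values were seen. Alternatives were quantile, array-median and spike-in scaling (7 probes), normexp (offset 50, on median signals), other filters, the mean of a gene's probes, blocks for slide, scan or replicate number, and leave-one-out fits. Precision is limited by the number of arrays.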

Additional observations from a re-analysis of the deposited data

How the results depend on the processing

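Quantile normalization gave 27 lysosomal genes higher and 9 lower in soma, against 24 and 14 as reported. Their median difference was 0.31 with scaling to the array median, 0.73 with scaling to the spike-in probes and 0.59 with the mean of a gene's probes, against 0.51. The median of all genes shifted too, and was -0.34 with scaling to the array median, 0.08 with the spike-in probes and -0.02 after quantile normalization, against -0.14. The distance between both medians was 0.65 as reported and 0.55 after quantile normalization. Scaling to the array median or to the spike-in probes shifts every gene by the same amount, so the distance cannot change there. Values that changed sign were Ctsz at -0.053 and Mcoln1 at -0.12 with the array median, Ctsa at 0.15, Gla at 0.020 and Lamp1 at 0.27 after quantile normalization, Ctsa at 0.999, Sgsh at 0.63, Cln3 at 0.25 and Sort1 at -0.016 with the mean of probes, and Arsb at -0.0013 with normexp and between -0.40 (without ESC 3) and 0.93 (without ESC 2) as single arrays were left out. The cause was not tested. Soma and ESC samples of the same number did not deviate together (r = -0.047, 0.067 and 0.027), and samples of different numbers gave r from -0.081 to 0.051. No sign of pairing by number was seen, but so few samples cannot exclude it. With the replicate block 22 lysosomal genes were higher and 14 lower, and with the slide as a block, which sets ESC against soma 3 alone, 22 and 13. Leaving out each array in turn gave 22 to 24 higher and 13 to 14 lower. Dim probes such as those of Tfeb, Arsb and Ctso limit what can be said of these genes.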

Other observations

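Ctso, a cysteine protease, was the only lysosomal gene of the 41 with no kept probe. Its signals were 1.62, 2.74 and 18.3 in soma, where 2 of 3 arrays were well above background, against 0.725, 0.666 and 1.24 in ESC, where 0 of 3 were. Soma 3 lay far above the other soma arrays. The pair Gaa and Sgsh, with 2 coding genes between them on chromosome 11, differed by 0.55 and -0.82 on the log2 scale by their brightest probes.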
